A study of Mus musculus with 24 samples.

Results

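The NF-kB genes described here are 10 of the 28328 genes with a value in LLC1 mouse carcinoma cells: the 5 subunit genes Nfkb1, Nfkb2, Rela, Relb and Rel, and 5 genes that restrain or feed back on the pathway, Nfkbia, Nfkbib, Nfkbie, Tnfaip3 and Birc3. They were chosen by name, for their place in the pathway, with earlier results of these data known. Each value is the sum of the TPM (transcript abundance scaled for transcript length, with each library summing to 1000000) of the transcripts of a gene. All 10 were among the 12581 genes that reached 1 TPM in at least 3 libraries and were tested.

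LLC1 is a line derived from a Lewis lung carcinoma of the mouse. Polyadenylated RNA was sequenced from 24 libraries in 8 groups of 3, 4 groups collected at 6 h and 4 at 24 h. The untreated cells received 0.1% DMSO alone. The chemotherapy cells received cisplatin at 2.5 µM, which crosslinks DNA, and pemetrexed at 2.5 µM, which blocks folate-dependent nucleotide synthesis. The trametinib cells received that MEK inhibitor at 10 nM, and the combination cells received cisplatin, pemetrexed and trametinib. All groups are the same cell line in culture, with no host cells. The study compared the treatments with each other and with untreated cells at each time, and the same comparisons are made here for the NF-kB genes.

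NF-kB transcription factors are dimers of Rel-family proteins. RELA, RELB and REL carry transactivation domains, while NFKB1 and NFKB2 are made as long precursors, p105 and p100, that are processed to the DNA-binding proteins p50 and p52. In resting cells the IkB proteins, encoded by Nfkbia, Nfkbib and Nfkbie, hold the dimers in the cytoplasm until the IKK complex marks them for degradation. Several members are themselves transcribed under NF-kB. IkB-alpha from Nfkbia returns dimers to the cytoplasm, and A20 from Tnfaip3 edits the ubiquitin chains that carry the signal from receptors. Through these the pathway limits itself. Birc3 encodes cIAP2, a ubiquitin ligase at those receptors, and is not read here as a limit on the pathway. In the non-canonical branch, NIK leads to processing of p100, and the product pairs with RELB. TPM measures transcripts, and neither protein, processing nor localisation was measured.

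In every library between 11242 and 11851 genes reached 1 TPM, and libraries of the same group correlated at 0.993 to 0.997 over genes on the log2(TPM + 1) scale. Each column sums to 1000000, so the sequencing depth behind a value is unknown. Nothing in the labels tells separate cultures from repeat preparations of 1 culture, so the p-values cover the spread among these libraries alone, and that spread may be technical. Of 5 epithelial markers, Krt8 averaged 136 TPM, Krt18 223 TPM and Krt19 2.87 TPM, whereas Epcam averaged 0.000685 TPM and Cdh1 0.0749 TPM. Of 5 fibroblast and mesenchymal markers, Vim averaged 3761 TPM. The rest of that list was low, with Pdgfra at 5.27, Col1a1 at 1.74, Pdgfrb at 0.609 and Thy1 at 0.00287 TPM. Of 6 lung epithelial markers only Ager, at 2.19 TPM, averaged at least 1 TPM, so the defining lung markers of the labelled origin were near 0. The summed level of 6 myeloid markers, 2 of them averaging at least 1 TPM and most of it Cd68, was 10.7 to 15.2 TPM in untreated cells at 24 h, 34.8 to 41.2 TPM with chemotherapy, 5.05 to 6.74 TPM with trametinib and 17.0 to 18.0 TPM with the combination. Their defining members Adgre1 and Ptprc were listed at 0 in all libraries and averaged 0.000504 TPM, respectively.

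Since several of the genes are known as targets of the pathway, their promoter sequences were searched for kB sites. A kB site is described here by the usual decamer consensus, 3 G, a purine, 2 free positions, 2 pyrimidines and 2 C, searched on both strands. A match on the other strand reads as the reverse complement on the printed one, with 2 G and 2 purines before the free positions and a pyrimidine and 3 C after them. RefSeq promoter windows (GRCm38.p6, 250 bases before to 50 after a start) matched 8 of the 10 genes by symbol, all but Nfkb1 and Relb. There were 11 windows in all, because Nfkb2 has 3 and Tnfaip3 has 2. A match was found in a window of 5 of the 8 genes: Nfkb2, Rel, Nfkbia, Nfkbie and Tnfaip3. Among all 32851 windows of that length 8.46% held a match, as did 9.55% of 27025 genes. No match was found in the windows of Rela, Nfkbib and Birc3, which says only that these letters are absent there. A match is a description of sequence and not a measured site of binding. The 150 bases before the start are shown for the 5 genes because the largest changes below, in Nfkbia and Tnfaip3, fall among them; capitals mark the matches, each 5′ to 3′ on the strand of the gene.

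Nfkbia (chr12:55492648-55492797, minus strand): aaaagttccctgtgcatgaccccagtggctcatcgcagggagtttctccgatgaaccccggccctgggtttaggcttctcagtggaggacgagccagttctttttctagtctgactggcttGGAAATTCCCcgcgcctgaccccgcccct
Tnfaip3 (chr10:19015411-19015560, minus strand): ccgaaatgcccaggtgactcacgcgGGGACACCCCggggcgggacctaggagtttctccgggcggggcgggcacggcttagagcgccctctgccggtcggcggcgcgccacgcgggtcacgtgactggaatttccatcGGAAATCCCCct
Nfkb2 (chr19:46304587-46304736, plus strand): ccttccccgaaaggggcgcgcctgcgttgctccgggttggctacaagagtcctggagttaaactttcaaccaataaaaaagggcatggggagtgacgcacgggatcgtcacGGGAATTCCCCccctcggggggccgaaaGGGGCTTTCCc
Rel (chr11:23770970-23771119, minus strand): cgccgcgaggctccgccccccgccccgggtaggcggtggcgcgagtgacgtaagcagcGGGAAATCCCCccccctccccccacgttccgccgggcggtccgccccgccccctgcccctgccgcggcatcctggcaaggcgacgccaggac
Nfkbie (chr17:45555550-45555699, plus strand): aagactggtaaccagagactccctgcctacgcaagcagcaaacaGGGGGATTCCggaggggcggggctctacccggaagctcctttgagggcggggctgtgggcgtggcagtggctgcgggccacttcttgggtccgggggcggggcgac

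The match in Nfkbia began 29 bases before the start, and those in Tnfaip3 began 125 and 12 bases before it. In Rel and Nfkb2, 2 overlapping matches shared a run of 11 bases, beginning 92 and 39 bases before the start, and Nfkb2 had a further match 11 bases before it. These Nfkb2 matches lie in its first window. In its later windows, which overlap each other, matches began 236 and -10 bases before the Nfkb2 start 2 and 225 bases before start 3. The match in Nfkbie began 106 bases before the start.

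**Figure D1:**
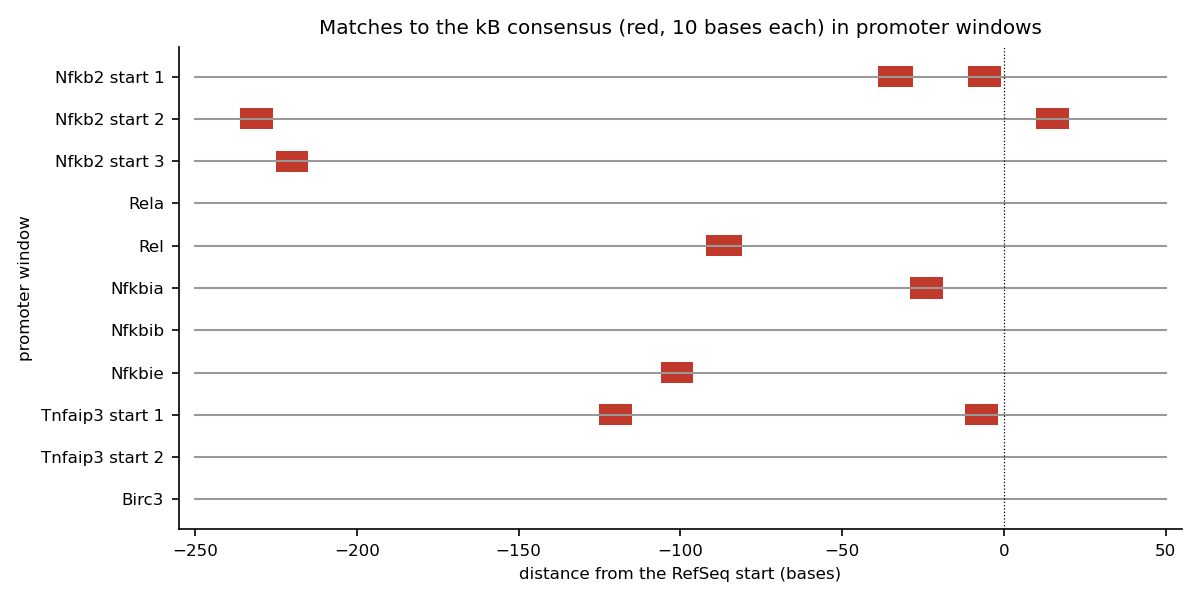
Matches to the kB consensus in the 11 RefSeq promoter windows of 8 of the NF-kB genes, by distance from the start in bases (horizontal axis, 250 before to 50 after). Red blocks are matches of 10 bases; the windows of Rela, Nfkbib and Birc3 and the Tnfaip3 start 2 window hold none.

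Nfkb1, the gene of p105 and p50 (chr3:135584655-135691547, minus strand, GRCm38), had the highest transcript level of the 10, with a mean of 63.9 TPM over the 24 libraries. Rela, the gene of the main transactivating subunit (chr19:5637483-5648130), averaged 40.5 TPM, Nfkbia 39.7 TPM and Nfkb2 28.4 TPM. Nfkbib at 9.95 TPM and Relb at 6.56 TPM followed, and the other 4 genes averaged under 5 TPM. Nfkbie, the gene of IkB-epsilon, was the lowest at 1.22 TPM.

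**Figure D2:**
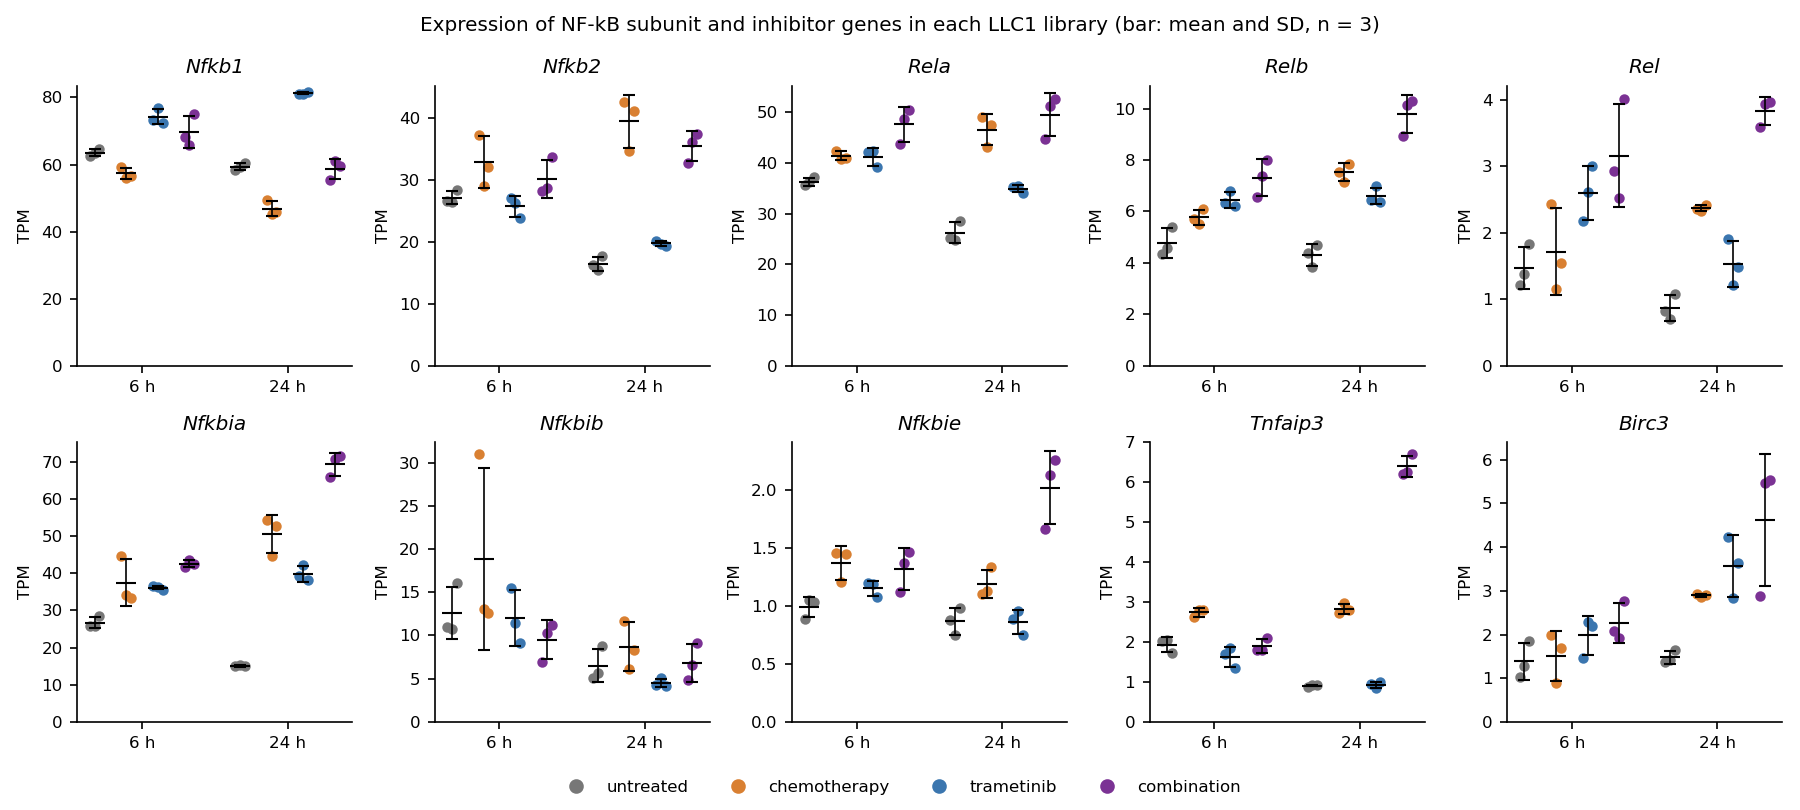
TPM of the 10 NF-kB genes in each library, with 6 h groups at the left and 24 h groups at the right of each panel; points are libraries, bars the mean and SD of 3. Nfkbia and Tnfaip3 at 24 h are highest in the combination libraries, at 65.8 to 71.5 TPM and 6.22 to 6.71 TPM.

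Nfkbia (chr12:55489410-55492647, minus strand) had the widest range of group means of the 10 genes on the log2(TPM + 1) scale, 2.13 beside 1.95 in Tnfaip3. As a ratio of the highest to the lowest group mean in TPM, Tnfaip3 ranged further, 7.04-fold against 4.60-fold in Nfkbia. In bulk RNA, a change in every cell and a change in some of the cells cannot be told apart. At 24 h the untreated libraries held 14.98, 15.3 and 14.96 TPM, the chemotherapy libraries 54.2, 44.7 and 52.7 TPM, the trametinib libraries 39.2, 42.2 and 38.2 TPM, and the combination libraries 65.8, 70.6 and 71.5 TPM. The 4 groups did not overlap, and every treated library lay above every untreated one. Against untreated cells the difference on the log2(TPM + 1) scale was 1.67 ± 0.08 (SE, n = 3 a group; limma adjusted p = 3.89e-12) with chemotherapy, 1.34 ± 0.08 (adjusted p = 7.49e-11) with trametinib and 2.13 ± 0.08 (adjusted p = 7.83e-14) with the combination. At 6 h the untreated libraries held 25.9, 25.8 and 28.4 TPM, the chemotherapy libraries 44.8, 34.1 and 33.5 TPM, the trametinib libraries 36.4, 36.4 and 35.6 TPM, and the combination libraries 41.7, 43.6 and 42.4 TPM. The 3 treatments again lay above untreated cells without overlap, by 0.46 ± 0.08 (adjusted p = 0.000504), 0.43 ± 0.08 (adjusted p = 0.000284) and 0.66 ± 0.08 (adjusted p = 1.59e-06). In order of mean level, Nfkbia ran from untreated cells at 24 h through untreated cells at 6 h, trametinib at 6 h, chemotherapy at 6 h, trametinib at 24 h, combination at 6 h and chemotherapy at 24 h to the combination at 24 h. Neighbours from trametinib at 6 h to the combination at 6 h overlapped, and the other neighbours did not.

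Tnfaip3, the gene of the ubiquitin-editing inhibitor A20 (chr10:19000910-19015657, minus strand), separated the treatments at 24 h. The untreated libraries held 0.887, 0.923 and 0.916 TPM, the trametinib libraries 0.960, 0.853 and 0.997 TPM, the chemotherapy libraries 2.73, 2.97 and 2.80 TPM, and the combination libraries 6.22, 6.27 and 6.71 TPM. Trametinib overlapped untreated cells, chemotherapy lay above both, and the combination lay above all other groups. The log2 difference from untreated cells was 0.02 ± 0.07 (limma adjusted p = 0.831) with trametinib, 1.01 ± 0.07 (adjusted p = 6.68e-10) with chemotherapy and 1.95 ± 0.07 (adjusted p = 3.11e-14) with the combination. At 6 h the untreated libraries held 2.04, 2.05 and 1.72 TPM, the chemotherapy libraries 2.62, 2.80 and 2.80 TPM, the trametinib libraries 1.70, 1.84 and 1.35 TPM and the combination libraries 1.79, 1.81 and 2.09 TPM. Chemotherapy alone lay above untreated cells there, by 0.35 ± 0.07 (adjusted p = 0.00145), and the combination overlapped them, with a difference of -0.02 ± 0.07 (adjusted p = 0.837). Trametinib gave -0.16 ± 0.07 (adjusted p = 0.0683), and passed as lower without untreated replicate 3 (-0.21) or trametinib replicate 2 (-0.22) of 6 h. The chemotherapy level of Tnfaip3 was thus 2.74 ± 0.10 TPM (SD, n = 3) at 6 h and 2.83 ± 0.12 TPM at 24 h, while the untreated level was 1.94 ± 0.19 TPM and 0.909 ± 0.019 TPM. In order of mean level, untreated and trametinib at 24 h overlapped at the bottom, trametinib, combination and untreated at 6 h overlapped above them, chemotherapy at 6 h and 24 h overlapped next, and the combination at 24 h stood alone at the top.

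Nfkbie (chr17:45555703-45563169) also stood highest in the combination at 24 h. Its untreated libraries held 0.877, 0.748 and 0.979 TPM, the trametinib libraries 0.885, 0.952 and 0.749 TPM, the chemotherapy libraries 1.11, 1.13 and 1.33 TPM, and the combination libraries 1.66, 2.13 and 2.26 TPM. The combination lay above the other groups, by 0.69 ± 0.09 (limma adjusted p = 9.6e-07) on the log2 scale against untreated cells, whereas chemotherapy gave 0.23 ± 0.09 (adjusted p = 0.0288) and trametinib -0.00 ± 0.09 (adjusted p = 0.973). The chemotherapy call ended without untreated replicate 1 or 2 or chemotherapy replicate 3 of 24 h, with differences of 0.18 to 0.27 over the 6 omissions, and after rescaling all libraries to a common median ratio (0.19).

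Nfkbib, the gene of IkB-beta (chr7:28758251-28767512, minus strand), differed from untreated cells with no treatment at either time by the test, and its differences had the largest SE of the 10 genes. At 6 h the chemotherapy libraries held 31.0, 13.1 and 12.5 TPM, beside 10.96, 10.7 and 16.1 TPM in untreated cells, 15.5, 11.4 and 9.11 TPM with trametinib and 6.98, 10.3 and 11.3 TPM with the combination. At 24 h the untreated libraries held 5.11, 5.71 and 8.74 TPM, the chemotherapy libraries 11.7, 6.08 and 8.34 TPM, the trametinib libraries 4.21, 5.09 and 4.19 TPM and the combination libraries 4.85, 6.53 and 9.15 TPM. The 6 log2 differences from untreated cells ran from -0.42 to 0.45, each with an SE of 0.31, and their smallest adjusted p was 0.245. Nfkbib overlaps Sirt2 and Ccer2 on the other strand; the library kit marks strand, and the sources used here do not state whether quantification used it. Chemotherapy replicate 1 of 6 h, at 31.0 TPM, was also the highest of its group in Nfkb1, Nfkb2, Rela, Rel, Nfkbia, Nfkbie and Birc3. It was not the highest in Relb or Tnfaip3. Without it the Nfkb2 difference between chemotherapy and untreated cells at 6 h was 0.165 (limma adjusted p = 0.207). Those of Rel (-0.0666) and Birc3 (-0.0741), which passed no test, then changed sign. This library is named again below for the combination against chemotherapy.

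Birc3, the gene of cIAP2 (chr9:7848699-7873186, minus strand), was the only one of the 5 whose mean at 24 h was higher with trametinib than with chemotherapy, a difference that did not pass the test (0.22 ± 0.20 on the log2 scale, limma adjusted p = 0.344) but did with protein-coding transcripts alone (0.49, adjusted p = 0.000181). At 24 h the untreated libraries held 1.36, 1.41 and 1.65 TPM, the chemotherapy libraries 2.92, 2.86 and 2.91 TPM, the trametinib libraries 4.23, 2.84 and 3.63 TPM and the combination libraries 2.88, 5.47 and 5.53 TPM. All treated libraries lay above the untreated ones, and the treated groups overlapped each other. The differences from untreated cells were 0.66 ± 0.20 (adjusted p = 0.0075) with chemotherapy, 0.87 ± 0.20 (adjusted p = 0.000801) with trametinib and 1.15 ± 0.20 (adjusted p = 4.29e-05) with the combination. At 6 h no difference passed the test, the nearest being the combination at 0.45 ± 0.20 (adjusted p = 0.0566), with 2.07, 1.92 and 2.77 TPM beside 1.03, 1.28 and 1.85 TPM in untreated cells; without untreated replicate 3 of 6 h it was 0.59 (adjusted p = 0.0271). It also passed with a pseudocount of 0.1 (0.68, adjusted p = 0.0442), with the 2 groups fitted alone (adjusted p = 0.0481) and with protein-coding transcripts alone (0.35, adjusted p = 0.00476), as did trametinib with the last (0.23, adjusted p = 0.0484).

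Among the subunits, Nfkb1 moved in opposite directions with the treatments. At 24 h its untreated libraries held 58.3, 59.2 and 60.6 TPM, the chemotherapy libraries 49.4, 45.2 and 45.7 TPM, the trametinib libraries 81.1, 81.0 and 81.6 TPM and the combination libraries 55.4, 61.1 and 59.6 TPM. Chemotherapy lay below and trametinib above untreated cells, and the combination overlapped them. The log2 differences were -0.34 ± 0.05 (limma adjusted p = 5.73e-06), 0.45 ± 0.05 (adjusted p = 1.55e-07) and -0.02 ± 0.05 (adjusted p = 0.772); after rescaling, the last was -0.14 and passed the test. By mean, chemotherapy was again the lowest group and trametinib the highest at 6 h, with 62.5, 63.5 and 64.5 TPM untreated, 59.3, 56.1 and 56.7 TPM with chemotherapy, 73.3, 76.8 and 72.5 TPM with trametinib and 68.3, 65.9 and 75.1 TPM with the combination. No library of chemotherapy at 6 h reached the untreated level, and no library of trametinib or the combination came down to it, whereas the combination overlapped untreated cells at 24 h. The 6 h differences were -0.14 ± 0.05 (adjusted p = 0.0333) with chemotherapy, 0.22 ± 0.05 (adjusted p = 0.000629) with trametinib and 0.13 ± 0.05 (adjusted p = 0.023) with the combination. After rescaling, that of the combination was 0.0015. With protein-coding transcripts alone, none of the 6 h differences passed.

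Nfkb2, the gene of p100 and p52 (chr19:46304320-46312385), rose most with chemotherapy and with the combination at 24 h. At that time the untreated libraries held 16.3, 15.4 and 17.7 TPM, the chemotherapy libraries 42.6, 34.6 and 41.2 TPM, the trametinib libraries 20.2, 19.7 and 19.3 TPM and the combination libraries 32.7, 36.2 and 37.4 TPM. Chemotherapy and the combination overlapped, well above trametinib, which lay just above untreated cells. The log2 differences from untreated cells were 1.21 ± 0.09 (limma adjusted p = 1.18e-09), 1.06 ± 0.09 (adjusted p = 4.68e-09) and 0.25 ± 0.09 (adjusted p = 0.0244) for chemotherapy, the combination and trametinib. The trametinib call ended without untreated replicate 1 or 2 or trametinib replicate 1 of 24 h, with differences of 0.20 to 0.30. At 6 h the untreated libraries held 26.7, 26.5 and 28.3 TPM, the chemotherapy libraries 37.3, 29.1 and 32.1 TPM, the trametinib libraries 27.2, 26.2 and 23.9 TPM and the combination libraries 28.1, 28.8 and 33.7 TPM. Chemotherapy passed there (0.26 ± 0.09, adjusted p = 0.0434), while the combination overlapped untreated cells (0.14 ± 0.09, adjusted p = 0.185, and 0.0157 after rescaling), as did trametinib (-0.07 ± 0.09, adjusted p = 0.518). Nfkb2 overlaps Psd and the non-coding AC114539.1 on the other strand.

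Rela rose with all 3 treatments at 24 h. The untreated libraries held 25.2, 24.8 and 28.6 TPM, the trametinib libraries 35.3, 35.4 and 34.2 TPM, the chemotherapy libraries 49.0, 43.1 and 47.5 TPM and the combination libraries 44.6, 51.2 and 52.6 TPM. Chemotherapy and the combination overlapped, and trametinib stood between them and untreated cells, with log2 differences from untreated cells of 0.81 ± 0.07 (limma adjusted p = 4.51e-09), 0.89 ± 0.07 (adjusted p = 6.81e-10) and 0.40 ± 0.07 (adjusted p = 3.18e-05). At 6 h the untreated libraries held 35.6, 36.2 and 37.1 TPM and the combination libraries 43.8, 48.8 and 50.4 TPM, a log2 difference of 0.38 ± 0.07 (adjusted p = 5.97e-05), and 0.25 after rescaling. Chemotherapy alone gave 0.18 ± 0.07 (adjusted p = 0.0505) and trametinib alone 0.18 ± 0.07 (adjusted p = 0.0293). The trametinib call at 6 h ended without untreated replicate 1 or 2 or trametinib replicate 1 or 2, with differences of 0.16 to 0.21, and was 0.08 after rescaling.

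Relb, the partner of p52 (chr7:19606217-19629438, minus strand), and Rel, the gene of c-Rel (chr11:23736847-23770970, minus strand), rose furthest with the combination. At 24 h Relb held 4.37, 3.85 and 4.68 TPM in untreated libraries, 7.54, 7.15 and 7.85 TPM with chemotherapy, 6.46, 6.97 and 6.38 TPM with trametinib and 8.93, 10.2 and 10.3 TPM with the combination. Its 4 groups did not overlap, and the log2 differences from untreated cells were 0.69 ± 0.08 (limma adjusted p = 5.29e-07), 0.52 ± 0.08 (adjusted p = 1.5e-05) and 1.03 ± 0.08 (adjusted p = 1.38e-09). Rel held 0.828, 0.702 and 1.08 TPM untreated, 2.36, 2.33 and 2.42 TPM with chemotherapy, 1.90, 1.22 and 1.49 TPM with trametinib and 3.59, 3.94 and 3.97 TPM with the combination. Its groups did not overlap either, with differences of 0.86 ± 0.15 (adjusted p = 9.2e-05), 0.44 ± 0.15 (adjusted p = 0.021) and 1.37 ± 0.15 (adjusted p = 2.17e-07). The trametinib call in Rel ended without untreated replicate 1 or 2 or trametinib replicate 1 of 24 h, with differences of 0.33 to 0.53. At 6 h both genes passed the test with trametinib, Relb at 0.37 ± 0.08 (adjusted p = 0.000645) and Rel at 0.54 ± 0.15 (adjusted p = 0.00576), and with the combination, Relb at 0.53 ± 0.08 (adjusted p = 1.3e-05) and Rel at 0.74 ± 0.15 (adjusted p = 0.000362).

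**Figure D3:**
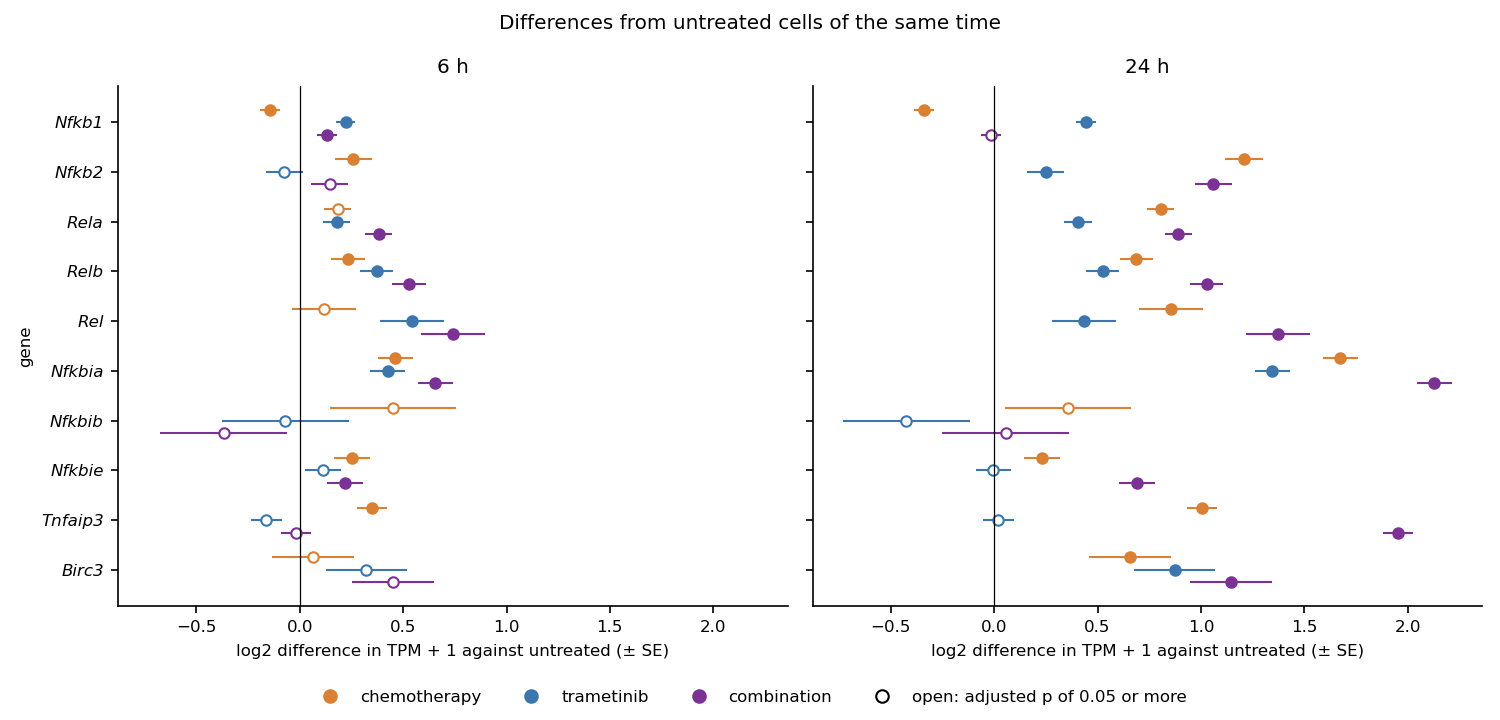
Log2 differences in TPM + 1 from untreated cells of the same time for the 10 NF-kB genes (± SE, 3 libraries a group) at 6 h and 24 h; filled points passed the test and open points did not. At 24 h Nfkbia reaches 2.13 and Tnfaip3 1.95 with the combination, and Nfkb1 falls by 0.34 with chemotherapy alone.

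Counted over the 10 genes at 24 h, 8 were higher and 1, Nfkb1, lower with chemotherapy, when 34.9% of all genes tested were called higher and 24.3% lower. With trametinib 7 were higher and 0 lower, against 32.4% and 26.3% of all genes. With the combination 8 were higher and 0 lower, against 39.6% and 23.8% of all genes. The median log2 difference of the 10 genes was 0.75, 0.42 and 1.04, beside 0.06, 0.04 and 0.10 over all genes. The 3 comparisons share the untreated libraries. Among the 6 h comparisons, chemotherapy gave 5 higher (Nfkb2, Relb, Nfkbia, Nfkbie and Tnfaip3) and 1 lower (Nfkb1), against 11.3% and 13.5% of all genes. Trametinib gave 5 higher (Nfkb1, Rela, Relb, Rel and Nfkbia) and 0 lower, against 35.9% and 18.9%, and the combination gave 6 higher (those 5 and Nfkbie) and 0 lower, against 38.6% and 19.8%. The medians at 6 h were 0.24, 0.20 and 0.30 for the 10 genes and 0.01, 0.10 and 0.11 for all genes.

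The 6 h chemotherapy calls were the least firm. Those of Nfkb1 (-0.14), Nfkb2 (0.26), Relb (0.23) and Nfkbie (0.25) were each lost in 5 of 6 omissions of a library, with differences of -0.17 to -0.13, 0.17 to 0.34, 0.18 to 0.31 and 0.22 to 0.30; the omission that kept the call was chemotherapy replicate 1 for Nfkb1, chemotherapy replicate 2 for Nfkb2 and Nfkbie, and untreated replicate 3 for Relb. With single libraries left out, 2 to 4 genes passed instead of 6, and Nfkbia and Tnfaip3 passed in every omission. With the combination at 6 h, the call of Nfkb1 (0.13) ended without untreated replicate 1 or 2 or combination replicate 3 (0.08 to 0.17), and that of Nfkbie (0.22) without untreated replicate 1 or 3 or combination replicate 2 or 3 (0.17 to 0.28). When libraries were rescaled, the differences of single genes shifted by a median, over all genes, of -0.10 with trametinib at 6 h. This median shift was -0.13 with the combination at 6 h and -0.12 with the combination at 24 h. For the combination and for trametinib against chemotherapy at 6 h it was -0.14 and -0.11. After rescaling, Nfkb1 and Nfkbie no longer passed with the combination at 6 h (0.0015 and 0.15). Rela then passed with chemotherapy (0.20) and Tnfaip3 passed as lower with trametinib (-0.23) at 6 h. In 8 of the 18 comparisons rescaling changed the share of higher genes among all called by over 10 percentage points, from 62.4% to 70.8% as deposited to 50.5% to 52.7%. At 24 h Nfkbia, Tnfaip3, Relb, Rel, Rela, Nfkb2, Nfkbie and Birc3 passed as higher with the combination after rescaling too, Nfkbia at 2.01 and Tnfaip3 at 1.87.

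Whether the combination exceeded its parts was tested by subtracting the log2 effects of chemotherapy and of trametinib from its own. On this scale the sum of the parts multiplies fold changes, and whether gains in TPM add up was not tested. At 24 h, 2 genes lay above the sum and 3 below it, when 16.2% of all genes tested lay above and 15.6% below. Tnfaip3 lay above, with 1.95 for the combination and 1.03 for the sum, a gap of 0.93 ± 0.10 (limma adjusted p = 1.7e-06). Nfkbie also lay above, with 0.69 against 0.23, a gap of 0.46 ± 0.12 (adjusted p = 0.00692). Nfkbia lay below, with 2.13 against 3.02, a gap of -0.89 ± 0.12 (adjusted p = 1.44e-05), although its level was highest in the combination. Rela and Nfkb2 lay below by 0.32 ± 0.09 (gap -0.32, adjusted p = 0.0138) and 0.40 ± 0.13 (gap -0.40, adjusted p = 0.0237). The Nfkb2 call ended without untreated replicate 2, chemotherapy replicate 1 or 3, or combination replicate 1, with gaps of -0.49 to -0.34. At 6 h no gap passed limma's test and 0 had an unadjusted p under 0.05, when 0.0954% of all genes tested were called in either direction. The 6 h gaps ran from -0.75 ± 0.43 in Nfkbib to 0.08 ± 0.22 in Rel.

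**Figure D4:**
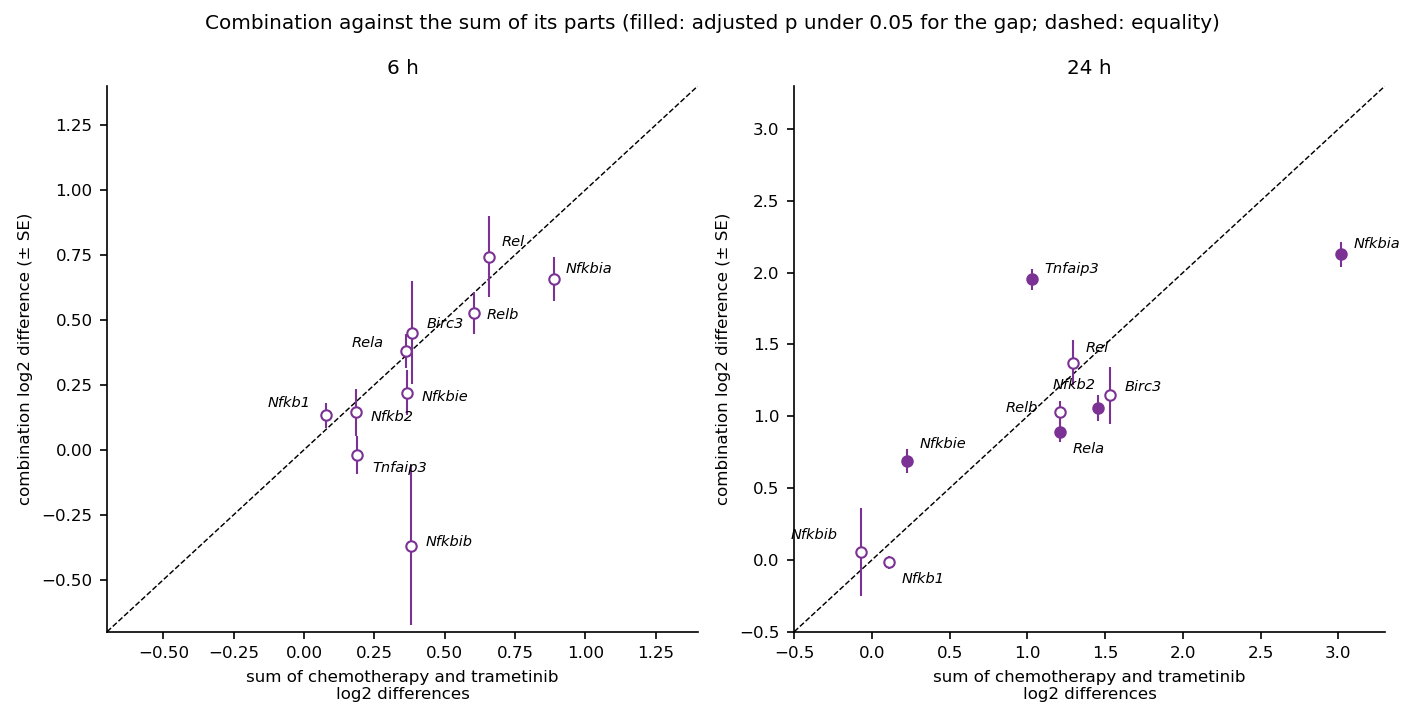
Log2 difference of the combination from untreated cells (vertical axis, ± SE) against the sum of the chemotherapy and trametinib differences (horizontal axis) for the 10 NF-kB genes at 6 h and 24 h; the dashed line marks equality. At 24 h Tnfaip3 lies above the line by 0.93 and Nfkbia below it by a gap of -0.89; filled points passed the test of the gap.

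Set directly against chemotherapy at 24 h, the combination was higher in 7 of the 10 genes, when 30.3% of all genes were. Tnfaip3 led with 0.95 ± 0.07 (limma adjusted p = 2.18e-09), followed by Rel at 0.52 ± 0.15 (adjusted p = 0.00804), Birc3 at 0.49 ± 0.20 (adjusted p = 0.0428), Nfkbie at 0.46 ± 0.09 (adjusted p = 0.000172) and Nfkbia at 0.45 ± 0.08 (adjusted p = 0.000156). Relb and Nfkb1 were higher by 0.34 and 0.32. The groups overlapped in Birc3, whose call was kept only in the omission of combination replicate 1 (0.74) and lost in the other 5 (0.36 to 0.49). It was also lost with a pseudocount of 0.1 (0.60, adjusted p = 0.0813) and kept with protein-coding transcripts alone (0.53, adjusted p = 0.000135). Nfkb2 gave -0.15 ± 0.09 (adjusted p = 0.181), and passed as lower at -0.24 (adjusted p = 0.0393) without chemotherapy replicate 2 and at -0.20 after rescaling. Rela gave 0.09 ± 0.07 (adjusted p = 0.298). Adding trametinib to chemotherapy was therefore followed by higher levels of the inhibitor genes Nfkbia, Nfkbie and Tnfaip3 and of Relb, Rel and Nfkb1, and not detectably of Rela or Nfkb2.

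Against trametinib at 24 h, the combination was higher in 7 genes and lower in 1, when 31.4% and 18.0% of all genes were. Tnfaip3 was higher by 1.93 ± 0.07, Rel by 0.94 ± 0.15, Nfkb2 by 0.81 ± 0.09, Nfkbia by 0.78 ± 0.08, Nfkbie by 0.69 ± 0.09, Relb by 0.50 ± 0.08 and Rela by 0.49 ± 0.07. Nfkb1 was the lower gene, at -0.46 ± 0.05. Birc3 gave 0.27 ± 0.20 (limma adjusted p = 0.271), and 0.52 (adjusted p = 0.0276) without combination replicate 1. Trametinib against chemotherapy at 24 h left 1 gene higher, Nfkb1 at 0.78 ± 0.05, and 7 lower, when 31.2% of all genes were higher and 35.5% lower. The lower genes were Tnfaip3 at -0.99 ± 0.07, Nfkb2 at -0.96 ± 0.09, Nfkbib at -0.78 ± 0.31, Rel at -0.42 ± 0.15, Rela at -0.40 ± 0.07, Nfkbia at -0.33 ± 0.08 and Nfkbie at -0.23 ± 0.09. Calls were lost without chemotherapy replicate 1 or 3 or trametinib replicate 1 or 3 in Nfkbib (-0.99 to -0.57), without chemotherapy replicate 3 or trametinib replicate 2 or 3 in Rel (-0.52 to -0.33), and without replicate 3 of either group in Nfkbie (-0.27 to -0.19). Single omissions left 5 to 8 genes called in this comparison.

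At 6 h the combination against chemotherapy was higher in 4 genes and lower in 2, when 39.7% and 16.4% of all genes were, so the count of higher genes was at the background. The higher genes were Rel (0.63 ± 0.15), Relb (0.29 ± 0.08), Nfkb1 (0.28 ± 0.05) and Rela (0.20 ± 0.07). The lower genes were Nfkbib (-0.82 ± 0.31) and Tnfaip3 (-0.37 ± 0.07). Nfkbib rested on the chemotherapy library at 31.0 TPM: without it the difference was -0.42 (limma adjusted p = 0.221), and without combination replicate 1 it was -0.63 (adjusted p = 0.126). Without that same chemotherapy library Nfkbia, at 0.19 (adjusted p = 0.0584), rose to 0.33 (adjusted p = 0.000443) and Birc3, at 0.39 (adjusted p = 0.102), to 0.53 (adjusted p = 0.0456). The call of Rela ended without combination replicate 2 (0.18) or 3 (0.16), and after rescaling Rela (0.05) and Relb (0.16) did not pass, Nfkb1 was 0.13 and Nfkb2 passed as lower (-0.26). Against trametinib at 6 h, 1 gene was higher, Rela at 0.20 ± 0.07 (adjusted p = 0.0392), when 12.3% of all genes were; the call held only without combination replicate 1 among the 6 omissions, 0.16 to 0.26, and Nfkb1 passed as lower at -0.14 without combination replicate 3. After rescaling Rela did not pass (0.17) and Nfkb1 passed as lower (-0.12). Trametinib against chemotherapy at 6 h gave 2 higher genes, Rel at 0.43 ± 0.15 and Nfkb1 at 0.37 ± 0.05, and 2 lower genes, Tnfaip3 at -0.51 ± 0.07 and Nfkb2 at -0.33 ± 0.09, when 36.9% and 19.7% of all genes were. The groups overlapped in Rel, whose call ended without chemotherapy replicate 2 or 3 or trametinib replicate 2 or 3 (0.27 to 0.61).

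Untreated cells changed over time themselves. From 6 h to 24 h, 6 of the 10 genes fell, when 31.4% of all genes tested did. Nfkbib fell by 0.86 ± 0.31 on the log2 scale, Nfkbia by 0.78 ± 0.08, Nfkb2 by 0.69 ± 0.09, Tnfaip3 by 0.62 ± 0.07, Rela by 0.46 ± 0.07 and Rel by 0.40 ± 0.15. The falls of Rel and Nfkbib no longer passed without untreated replicate 3 of 6 h or untreated replicate 1 or 2 of 24 h (-0.48 to -0.30 and -1.06 to -0.69). For those 6 genes the level of a treated group at 24 h is set against a lower base than at 6 h. Nfkbia averaged 37.4 ± 6.4 TPM (SD, n = 3) with chemotherapy at 6 h and 50.5 ± 5.1 TPM at 24 h, while untreated cells went from 26.7 ± 1.5 to 15.1 ± 0.2 TPM.

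The treatment effects at 24 h were tested against those at 6 h. The chemotherapy effect was larger at 24 h in 6 genes, Nfkbia, Nfkb2, Rel, Tnfaip3, Rela and Relb, and more negative in 1, Nfkb1, when 28.3% and 16.7% of all genes were called in those directions. The trametinib effect was larger in 2 genes, Nfkbia and Nfkb1, when 15.9% of all genes were; without single libraries 2 to 4 genes passed, Nfkb2 (0.32) joining without trametinib replicate 1 of 6 h (0.36) or untreated replicate 3 of 24 h (0.37) and Rela (0.23) without the latter (0.29). The combination effect was larger in 8 genes, all but Nfkb1 and Nfkbib, when 25.3% of all genes were; Tnfaip3 led with 1.97 ± 0.10 (limma adjusted p = 6.9e-11), from -0.02 at 6 h to 1.95 at 24 h. Nfkbia followed with 1.47 ± 0.12 (adjusted p = 1.4e-08). The call of Birc3, 0.69 ± 0.28 (adjusted p = 0.0453), was lost in 9 of 12 omissions (0.56 to 0.94) and kept without untreated replicate 1 or combination replicate 3 of 6 h or combination replicate 1 of 24 h. It was also lost with a pseudocount of 0.1 (0.85, adjusted p = 0.085) and with no filter (adjusted p = 0.0817), and kept with protein-coding transcripts alone (0.48, adjusted p = 0.00714). That of Rel, 0.63 (adjusted p = 0.022), was lost without untreated replicate 3 or combination replicate 2 of 6 h or untreated replicate 2 of 24 h (0.52 to 0.77). For chemotherapy, that of Nfkb1, -0.19 (adjusted p = 0.0256), was lost without replicate 1 of either 6 h group, untreated replicate 3 or chemotherapy replicate 2 or 3 of 24 h (-0.23 to -0.17), and with protein-coding transcripts alone (-0.0810, adjusted p = 0.605).

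These changes altered the make-up of the subunit transcripts, given here as a share of the summed TPM of the 5 subunit genes. All transcripts of a gene are counted, whereas only 65.6% of Nfkb1 TPM lay in protein-coding ones. Its transcript annotated for nonsense-mediated decay took 19.7% to 26.6% of the gene by group. Shares of protein-coding transcripts alone were not computed. In untreated cells at 24 h Nfkb1 made up 55.4% ± 1.6 (SD, n = 3), Rela 24.4% ± 0.8, Nfkb2 15.4% ± 0.5, Relb 4.003% ± 0.265 and Rel 0.807% ± 0.143. With chemotherapy Nfkb1 made up 32.8% ± 1.3, about the same share as Rela at 32.6% ± 0.2, and Nfkb2 made up 27.6% ± 1.3. Trametinib left the shares near those of untreated cells, with Nfkb1 at 56.4% ± 0.6, while the sum of the 5 genes stood at 144 ± 1 TPM beside 107 ± 5 TPM in untreated cells. The combination gave Nfkb1 37.4% ± 0.9, Relb 6.23% ± 0.07 and Rel 2.44% ± 0.03, the last 2 the highest of the 8 groups. Per TPM of Rela, Nfkbia stood at 0.58 ± 0.05 TPM in untreated cells at 24 h, 1.1 ± 0.04 with chemotherapy, 1.1 ± 0.05 with trametinib and 1.4 ± 0.06 with the combination.

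**Figure D5:**
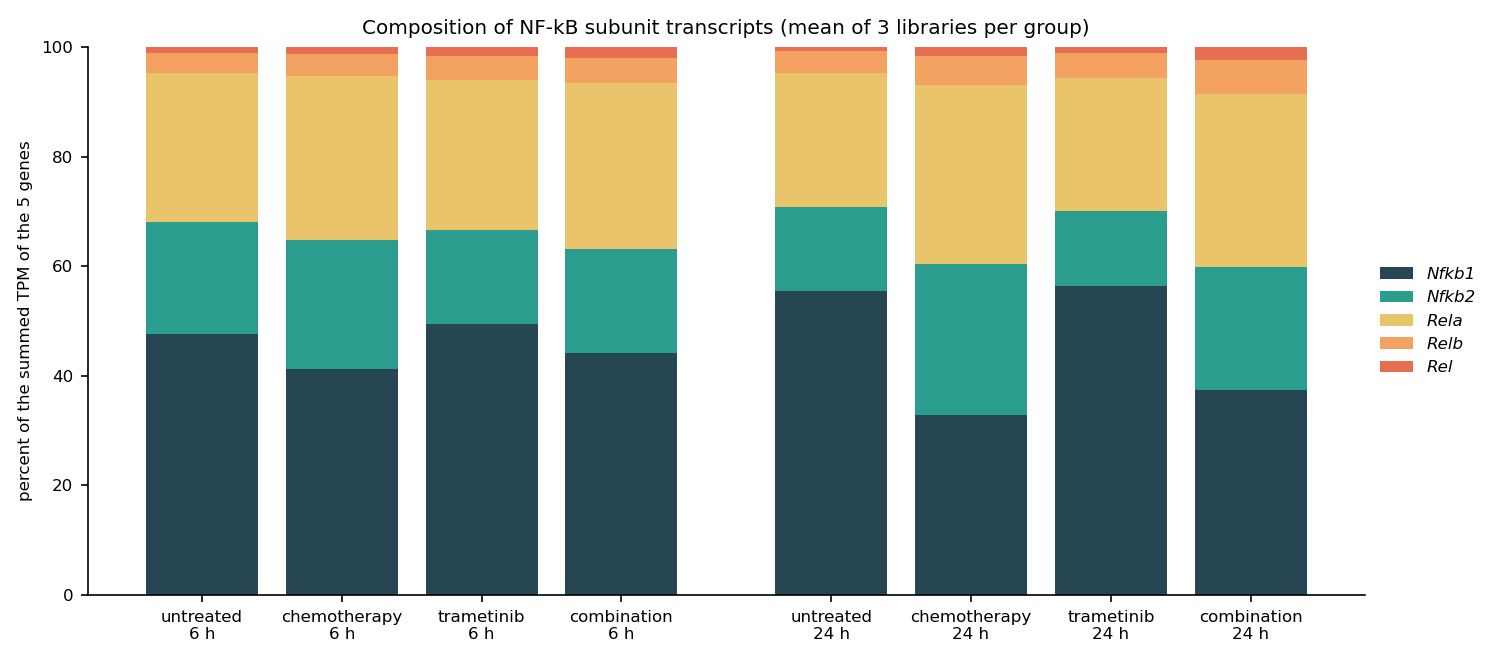
Share of each subunit gene in the summed TPM of Nfkb1, Nfkb2, Rela, Relb and Rel, as the mean of 3 libraries in each of the 8 groups (stacked bars, percent). All transcripts of each gene are counted, protein-coding or not. At 24 h the Nfkb1 share is 55.4% untreated, 32.8% with chemotherapy, 56.4% with trametinib and 37.4% with the combination.

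The transcripts behind the gene values differed in number. Rela, Rel, Nfkbia and Nfkbie have 1 transcript each in the table, and 1 transcript carried 92.9% of Tnfaip3 and 95.1% of Nfkbib. By group that share ran from 74% to 98.3% in Tnfaip3 and from 92.6% to 98.1% in Nfkbib. Nfkb1 was divided over 7 transcripts, and 65.6% of its TPM lay in protein-coding ones, with 23.3% in a transcript annotated for nonsense-mediated decay. With protein-coding transcripts alone, the Nfkb1 differences from untreated cells at 6 h were -0.21 with chemotherapy, 0.12 with trametinib and 0.06 with the combination, and did not pass the test. Birc3 was divided over 7 transcripts with 69.9% of its TPM in protein-coding ones. With these alone its differences from untreated cells at 24 h were 0.30 with chemotherapy, 0.79 with trametinib and 0.83 with the combination, and all 3 passed. At 6 h its difference between the combination and chemotherapy then passed too (0.31), and its trametinib effect was larger at 24 h than at 6 h (0.56, limma adjusted p = 0.00328). Nfkb1 also overlaps Gm43430 on its own strand. The division of Relb over 9 transcripts was unstable: Relb-202 took 0.454% to 49.9% of the gene by group mean, so Relb is described at the gene level alone.

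The surrounding pathway was described from 4 lists of genes, chosen with earlier results of these data known. Their counts beside the shares of all genes are therefore descriptions and not independent evidence. Of the receptors and ligands, 11 of 17 passed the filter on low values; Tnf, Lta, Ltb, Il1a, Il1b and Tnfsf13b did not, and Tnf averaged 0.0131 TPM. With the combination at 24 h, 7 of the 11 were higher and 2 lower, when 39.6% and 23.8% of all genes were. Il1r1, the signalling receptor of interleukin-1, was at 73.1 ± 3.1 TPM (SD, n = 3) beside 40.3 ± 2.2 TPM in untreated cells, a log2 difference of 0.85 ± 0.06 (limma adjusted p = 3.34e-10), and Tnfrsf1b, the second TNF receptor, at 2.50 ± 0.03 beside 0.732 ± 0.297 TPM (1.03 ± 0.10, adjusted p = 1.6e-08). Il1rap, the co-receptor of Il1r1, was lower, at 9.74 ± 0.56 beside 14.3 ± 1.1 TPM (-0.51 ± 0.07, adjusted p = 1.53e-06). With trametinib 5 were higher and 2 lower (32.4% and 26.3% of all genes). Il1r1 was at 88.2 ± 5.5 TPM with trametinib (1.11 ± 0.06), beside 73.1 TPM with the combination, and Il1rap was lower (-0.59 ± 0.07). With chemotherapy 4 were higher and 3 lower (34.9% and 24.3%), Tnfrsf12a among the higher (0.64 ± 0.09) and Il1rap among the lower (-0.47 ± 0.07). Il1r1 did not pass with chemotherapy (0.07 ± 0.06). The medians of the list were 0.42, 0.18 and -0.07 with the combination, trametinib and chemotherapy, beside 0.10, 0.04 and 0.06 over all genes.

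All 27 kinases and adaptors were tested. At 24 h 15 were higher and 3 lower with the combination, 14 and 7 with chemotherapy, and 10 and 3 with trametinib, with medians of 0.25, 0.21 and 0.13. Of all genes 39.6% and 23.8%, 34.9% and 24.3%, and 32.4% and 26.3% were called in those directions, with medians of 0.10, 0.06 and 0.04, so the trametinib count of higher genes was near the background. The adaptor genes Traf2 and Traf1 and the kinase gene Ripk1 led with the combination. Traf2 was at 34.9 ± 1.4 TPM (SD, n = 3) beside 11.8 ± 0.5 TPM in untreated cells, a log2 difference of 1.48 ± 0.05 (limma adjusted p = 5.4e-15), and at 24.3 ± 0.7 TPM with chemotherapy and 23.8 ± 0.9 TPM with trametinib. Ripk1 was at 30.8 ± 1.2 beside 14.4 ± 0.8 TPM (1.05 ± 0.07, adjusted p = 2.08e-10), and at 23.7 ± 2.3 TPM with trametinib (0.68 ± 0.07). Traf1, a known target of the pathway, was at 4.70 ± 0.06 beside 0.645 ± 0.147 TPM (1.80 ± 0.13, adjusted p = 3.25e-10). At 6 h 2 were higher and 2 lower with chemotherapy, 9 and 3 with trametinib, and 11 and 2 with the combination, when 11.3% and 13.5%, 35.9% and 18.9%, and 38.6% and 19.8% of all genes were, so the counts of higher genes were near or under those shares. Map3k8, the gene of a kinase bound by p105, stood in untreated cells at 0.684 ± 0.017 TPM, and chemotherapy (1.79 ± 0.24 TPM), trametinib (1.68 ± 0.12 TPM) and the combination (3.63 ± 0.43 TPM) were all higher by the test. Birc2, the gene of cIAP1, a close relative of cIAP2 whose shared sequence was not checked, was higher at 6 h with trametinib (0.59 ± 0.07) and the combination (0.76 ± 0.07), and Btrc, part of the ligase that marks IkB proteins, with trametinib (0.48 ± 0.05).

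Of 20 other inhibitors and atypical IkB genes, 17 were tested; Nfkbid, Tnip3 and Irak3 were not. At 24 h 10 were higher and 3 lower with the combination, 9 and 2 with chemotherapy and 6 and 2 with trametinib, with medians of 0.29, 0.25 and 0.08. The shares of all genes were 39.6% and 23.8%, 34.9% and 24.3%, and 32.4% and 26.3%, with medians of 0.10, 0.06 and 0.04, and 6 of 17 with trametinib is near that background. Nfkbiz, the gene of the nuclear IkB-zeta, was at 17.2 ± 0.2 TPM (SD, n = 3) with the combination beside 9.51 ± 0.54 TPM in untreated cells (0.79 ± 0.06, limma adjusted p = 2.7e-10). N4bp1 was higher with the combination (0.54 ± 0.06) and with chemotherapy (0.56 ± 0.06). Commd1, whose product promotes loss of nuclear RELA, was lower with both, at 148 ± 6 TPM and 120 ± 15 TPM beside 233 ± 2 TPM. Nlrc5 was lower with trametinib (-1.13 ± 0.13), while Otulin, the gene of a deubiquitinase for linear chains, was higher (0.37 ± 0.06). At 6 h 0 were higher and 3 lower with chemotherapy, 10 and 3 with trametinib and 7 and 0 with the combination, when 11.3% and 13.5%, 35.9% and 18.9%, and 38.6% and 19.8% of all genes were. Tax1bp1, the gene of an A20 partner, was lower with chemotherapy (-0.27 ± 0.05) and higher with trametinib (0.51 ± 0.05).

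Of 31 other targets, 20 were tested. Il6, Icam1, Bcl2a1b, Lcn2, Saa3, Csf2, Mmp9, Nos2, C3, Cd83 and Ccl20 did not pass the filter, Bcl2a1b being listed at 0 in all libraries. At 24 h 11 were higher and 6 lower with the combination, 9 and 3 with chemotherapy and 7 and 9 with trametinib, with medians of 0.31, 0.23 and 0.05. Beside these, 39.6% and 23.8%, 34.9% and 24.3%, and 32.4% and 26.3% of all genes were called, with medians of 0.10, 0.06 and 0.04. The chemokine genes Cxcl10 and Cxcl5 were the leading higher genes with the combination, Cxcl10 at 11.2 ± 1.6 TPM (SD, n = 3) beside 0.414 ± 0.037 TPM (3.10 ± 0.12, limma adjusted p = 3.2e-14) and Cxcl5 at 33.1 ± 1.2 beside 3.53 ± 0.36 TPM (2.92 ± 0.12, adjusted p = 1.28e-13). Sele, the gene of E-selectin, went the other way, at 0.511 ± 0.131 beside 5.31 ± 0.11 TPM (-2.07 ± 0.08, adjusted p = 3.11e-14), and it was lower with trametinib too (-2.36 ± 0.08), as was Gch1 (-2.91 ± 0.10). Cxcl1 and Plau were higher with chemotherapy, by 1.67 ± 0.12 and 0.77 ± 0.06. Against the sum of the parts at 24 h, 9 of the 20 lay above and 2 below, when 16.2% and 15.6% of all genes did, with a median gap of 0.40 beside 0.00 over all genes. Since earlier results were known when the list was chosen, this excess may reflect that choice. At 6 h 6 were higher and 2 lower with chemotherapy, 6 and 8 with trametinib, and 8 and 5 with the combination, when 11.3% and 13.5%, 35.9% and 18.9%, and 38.6% and 19.8% of all genes were. Plau (0.42 ± 0.06) and Ccl2 (0.81 ± 0.12) were higher with chemotherapy. Sele was lower at 6 h already, with trametinib (-2.20 ± 0.08) and with the combination (-2.16 ± 0.08), and Cxcl5 was higher (2.10 ± 0.12 and 2.77 ± 0.12).

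Lastly, the genes most like Nfkbia and Tnfaip3, the members with the widest range of group means on the log2(TPM + 1) scale, were sought over the 8 group means among all genes tested, by the root mean square difference of log2(TPM + 1) after centring. For Nfkbia, whose means spanned 2.13, they were Dscc1 (0.120), Ckb (0.128) and Gm15428 (0.179). Those closest to Tnfaip3, which spanned 1.95, were Arl4a (0.263), Npnt (0.264) and Cdc45 (0.279). None of these genes was among the 10 NF-kB genes, and the likeness is a description over 8 points that share libraries.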

How the data were processed

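The authors deposited TPM per transcript, made with kallisto 0.45 after bcl2fastq 2.17.1.14, with the build GRCm38, per the submitters' processing notes; the sources used here do not state the version of the transcript set. Libraries came from a stranded poly(A) kit, per the labels. The series' text names DESeq2, which needs counts and was not used here. Of 82934 transcripts, 79662 matched GENCODE M21 and were summed to genes; the rest, 4.45% to 5.98% of TPM, were left out. limma 3.58.1 (R 4.3.3) was fitted to log2(TPM + 1) with a variance trend and 1 mean per group over 24 libraries (16 residual degrees of freedom) for 12581 genes that reached 1 TPM in 3 or more libraries; the pseudocount understates changes of low genes. The two-sided p-values of 18 comparisons were each adjusted by Benjamini-Hochberg over all genes, with calls under 0.05. The fit was also run on simulated libraries, drawn independently with normal spread. Known changes were put only in genes above 1 on the log2(TPM + 1) scale in untreated cells at 24 h. That run therefore tests neither changes in lower genes nor shifts in scale between libraries. Columns were assigned by title, and no library was left out or identical to another. The members and lists were chosen with earlier results of these data known. The genes most like Nfkbib in pattern are not reported here. All 10 members were named, with up to 3 called genes per list for the combination at 24 h and up to 2 for the other treatments, by smallest p, and the untested genes of the receptor, inhibitor and target lists. Alternatives covered the pseudocount, filter, scaling, variance trend, transcripts, groups fitted, a replicate block, the Bonferroni rule of the series and the omission of each library.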

Additional observations from a re-analysis of the deposited data

Results flagged for a closer look

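The effect of a treatment on a gene, the log2 difference from untreated cells, differed between 6 h and 24 h by limma's interaction test in 17 cases, which rest on the same untreated libraries. With chemotherapy the effect at 24 h minus that at 6 h was 1.21 in Nfkbia, 0.95 in Nfkb2, 0.74 in Rel, 0.66 in Tnfaip3, 0.62 in Rela, 0.45 in Relb and -0.19 in Nfkb1. With trametinib it was 0.92 in Nfkbia and 0.22 in Nfkb1. With the combination it was 1.97 in Tnfaip3, 1.47 in Nfkbia, 0.92 in Nfkb2, 0.69 in Birc3, 0.63 in Rel, 0.51 in Rela, 0.50 in Relb and 0.47 in Nfkbie. Beside these, untreated cells fell from 6 h to 24 h by 0.78 in Nfkbia, 0.69 in Nfkb2, 0.62 in Tnfaip3, 0.46 in Rela and 0.40 in Rel.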

How the results depend on the processing

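Of 103 differences of the 10 genes that passed the test and 77 that did not, no called one changed sign under any alternative. The replicate numbers gave no steady sign of pairing: 10 of 36 same-numbered pairs deviated together with a correlation over 0.1 (-0.358 to 0.335), and 10 of 24 libraries were closest to their own number. Deviations were taken from means of 3 libraries, so this check cannot exclude pairing. With the number as a replicate block, 6 of 170 differences lost their call, and the genes called with chemotherapy at 6 h went from 6 to 3 and in the combination against trametinib at 6 h from 1 to 0; no other count moved by over 1.5 times. The Bonferroni rule of the series (under 0.10) is stricter by construction and ended 56 calls. It left 0 genes for chemotherapy, for trametinib, for the combination against chemotherapy and for the combination against trametinib at 6 h, 2 for the combination and 2 for trametinib against chemotherapy at 6 h. At 24 h it left 4 for trametinib, 2 for the combination against chemotherapy, 3 for trametinib against chemotherapy and 2 against the sum of parts, and of the effects at 24 h minus 6 h it left 4 for chemotherapy, 1 for trametinib and 3 for the combination. Fitting only the groups of a comparison gave 3 genes for chemotherapy at 6 h, 0 for the combination against trametinib at 6 h and 4 for the trametinib effect over time; the last was 4 after rescaling and 4 with protein-coding transcripts alone, and the combination against trametinib at 6 h was 0 with no filter on low values. A mean of at least 5 TPM leaves only 6 of the 10 genes to test, so counts fell by construction: 2 for trametinib against chemotherapy at 6 h, and at 24 h 5 for chemotherapy, 4 for the combination, 3 for the combination against chemotherapy, 5 for it against trametinib, 5 for trametinib against chemotherapy, 3 against the sum of parts and 4 for the combination effect over time. The cause of the other moves was not tested.

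Some differences that passed no test crossed 0. After rescaling, Rela against the sum of parts at 6 h was -0.0250, Tnfaip3 with trametinib at 24 h -0.0017 and Nfkbib with the combination at 24 h -0.0552. Nfkb1 with the combination at 24 h was 0.0528 with protein-coding transcripts alone, and Rel against the sum of parts at 24 h was -0.0815 with a pseudocount of 0.1. With single libraries left out, the genes called ranged from 2 to 4 for chemotherapy at 6 h, 0 to 1 for the combination against trametinib at 6 h, 5 to 8 for trametinib against chemotherapy at 24 h and 2 to 4 for the trametinib effect over time. The differences that then crossed 0 ranged, with chemotherapy at 6 h, from -0.0666 to 0.27 in Rel and -0.0741 to 0.26 in Birc3, with trametinib at 6 h from -0.26 to 0.11 in Nfkbib, and with the combination at 6 h from -0.0734 to 0.0092 in Tnfaip3. For the combination against chemotherapy at 6 h Nfkbie ranged from -0.0842 to 0.0301, and against trametinib Birc3 from -0.0003 to 0.21. For trametinib against chemotherapy at 6 h Rela ranged from -0.0249 to 0.0306 and Nfkbia from -0.11 to 0.0957. Against the sum of parts at 6 h the ranges were -0.12 to 0.0538 in Nfkb2, -0.022 to 0.0774 in Rela, -0.0672 to 0.27 in Rel and -0.13 to 0.20 in Birc3, and at 24 h -0.0095 to 0.19 in Rel and -0.0848 to 0.34 in Nfkbib. At 24 h they were -0.0509 to 0.0404 in Nfkbie and -0.0022 to 0.0519 in Tnfaip3 with trametinib, and -0.047 to 0.0229 in Nfkb1 and -0.15 to 0.26 in Nfkbib with the combination. The chemotherapy effect over time ranged from -0.31 to 0.31 in Nfkbib and -0.0737 to 0.0204 in Nfkbie, and the untreated change over time in Birc3 from -0.0464 to 0.20. Of effects over time that did not pass, Birc3 with chemotherapy (0.59) passed without chemotherapy replicate 1 of 6 h (0.73) and Nfkb1 with the combination (-0.15) without combination replicate 2 of 6 h (-0.19) or of 24 h (-0.18). TPM keeps no depth, so the counting error of the 4 genes under 5 TPM is unknown.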
